A study of Homo sapiens with 6 samples.

Results

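The ligands and receptors of the TNF superfamily were followed in SU-DHL-2 cells, an established human cell line of diffuse large B-cell lymphoma (DLBCL), with and without interleukin 17A (IL-17A). They comprised 41 of the 19740 genes named on the arrays, 17 ligands and 24 receptors, and were taken as the genes of these families to which the RefSeq accession of at least 1 probe led. The rule uses no expression value. Both groups were SU-DHL-2 cells kept for 72 h. In the IL-17A group (n = 3) the medium held IL-17A at 200 pg/ml, and the control group (n = 3) had none. Each sample was measured on its own 1-colour array. The values therefore describe 1 cell line at 1 dose and 1 time.

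Most TNF superfamily ligands are trimers anchored in the membrane of the cell that makes them, and some are shed. Their receptors carry cysteine-rich repeats outside the cell. Inside it, some bear a death domain that recruits FADD or TRADD, many bind TRAF adaptors that lead to the classical or the alternative NF-kB pathway, and a few decoys lack a working tail. In B cells, CD40 and BAFF receptor carry signals for survival and activation, TACI and BCMA bind BAFF and APRIL, CD27 and CD70 form a pair between activated lymphocytes, and CD30 marks activated lymphoid cells and several lymphomas.

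The 6 arrays measured 34127 probes, of which 23570 to 24077 per array were detected, that is positive, significant and well above background. The Pearson correlation across tested probes was 0.993 to 0.997 for all pairs of arrays. The 3 controls and IL-17A replicate 1 were scanned together, and the other IL-17A arrays in a separate scan, so that scan and treatment overlap in part. All values below are log2 signals after quantile normalization. A probe's level has meaning only against the same probe on another array, and levels of different genes were not compared, apart from sums over marker lists. The limma test took every probe with detection on 3 or more arrays, and a gene with several tested probes is represented by its brightest. An adjusted p under 0.05 over all tested probes was counted as a change. Among all 14747 named genes with a tested probe, 7.85% passed, 4.37% higher and 3.48% lower with IL-17A.

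In all, 32 of the 41 members were tested, 11 ligands and 21 receptors, and 25 of them were detected on all 6 arrays. Upregulation with IL-17A passed the test for 4 members, the ligands CD70 and TNFSF8 (CD30 ligand) and the receptors TNFRSF8 (CD30) and TNFRSF13B (TACI), and downregulation passed for none. These 4 were 12.5% of the tested members, against 4.37% of all tested genes in the same direction and 7.85% in either direction. Without adjustment 12 members had a p under 0.05, 8 higher and 4 lower, which was 37.5% against 31.8% of all tested genes. Values lay on both sides of 0. The log2 fold changes of the tested members ran from -0.63 to 0.73, 16 above and 16 below 0, and their median was 0.0088, beside 0.0032 over all tested genes. In 12 members the IL-17A and control arrays did not overlap, 9 higher and 3 lower, a share of 37.5% where all tested genes gave 40.6%. TNFRSF4 (OX40) was the only member that reached a 1.5-fold change together with an unadjusted p under 0.05, a rule that 1.92% of all tested genes met. In bulk RNA, a change in the share of cells that express a gene and a change in RNA per cell cannot be told apart.

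**Figure D1:**
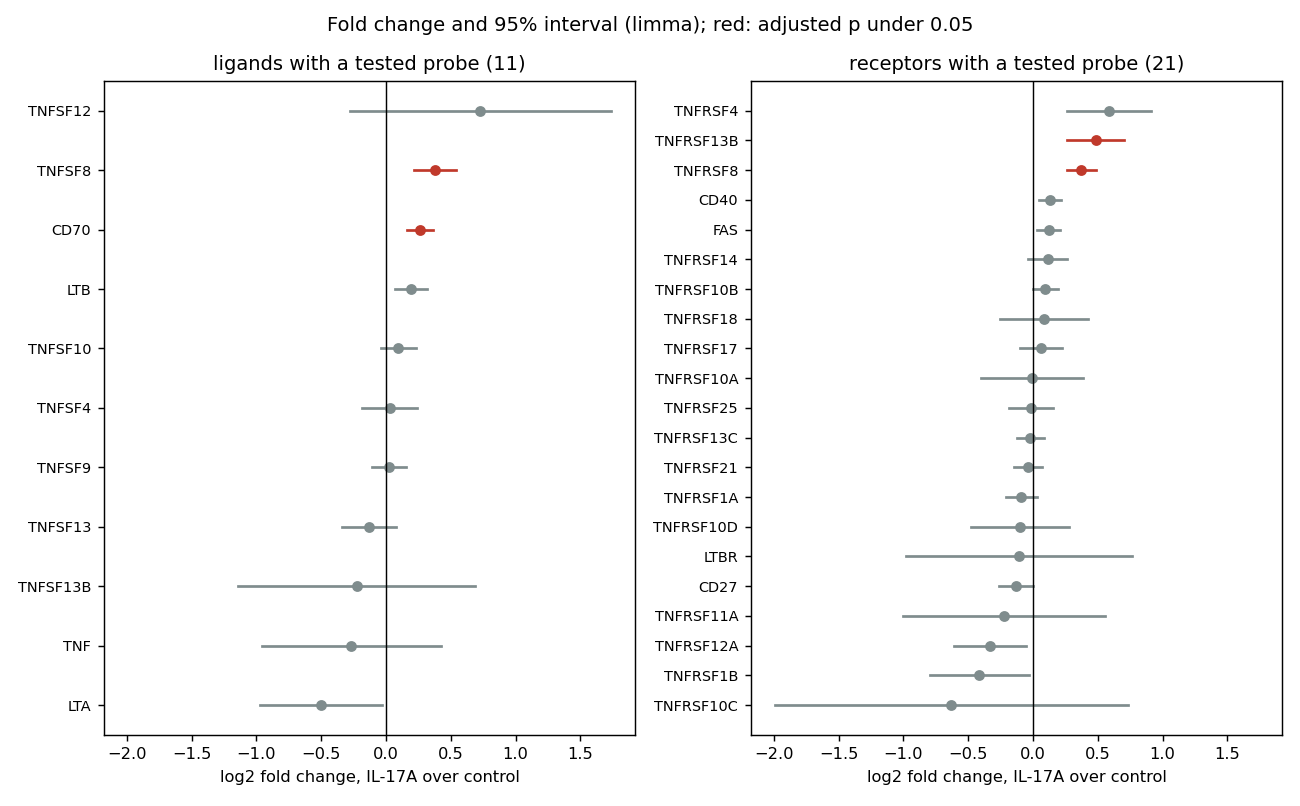
Log2 fold change of IL-17A over control (x axis) for the 11 tested ligands and the 21 tested receptors, with points for the limma estimate, bars for its 95% interval (3 arrays against 3) and red for an adjusted p under 0.05. CD70, TNFSF8, TNFRSF8 and TNFRSF13B are in red to the right of 0, and the widest interval is that of TNFRSF10C.

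The 4 calls were of small changes and depended on the full set of 6 arrays. Leaving out any 1 array ended the calls of CD70 (adjusted p 0.0506 to 0.138) and TNFSF8 (0.0582 to 0.135). The calls of TNFRSF8 (0.0477 to 0.135) and TNFRSF13B (0.0479 to 0.147) were kept only without control replicate 3. The number of all named genes that passed fell from 1157 to between 1 and 608 in the same fits. With the scan as a block, which sets IL-17A replicate 1 alone against the controls, no member passed at an adjusted p under 0.05. In every setting tried the 4 genes had a positive fold change and an unadjusted p under 0.05. These settings refit the arrays in which the 4 were called, so they give no independent support. In the main fit 31.8% of all tested genes had an unadjusted p under 0.05.

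CD30 and its ligand were the ligand and receptor pair of which both genes rose. TNFRSF8 encodes CD30, a receptor that binds TRAF adaptors and is carried by activated lymphocytes. It read 8.46, 8.52 and 8.46 on the IL-17A arrays and 8.06, 8.11 and 8.16 on the controls. All 3 IL-17A arrays lay above all 3 controls. The log2 fold change was 0.37 (SE 0.04, 95% interval 0.26 to 0.48), a fold of 1.30, with an adjusted p of 0.0313. Within the shared scan, IL-17A replicate 1 differed from the mean of the controls by 0.35.

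TNFSF8, the ligand of CD30, was also detected on all 6 arrays. Its log2 signals were 5.37, 5.30 and 5.34 with IL-17A and 5.04, 4.83 and 4.99 without. The groups did not overlap, and the controls spread more widely (SD 0.11) than the IL-17A arrays (SD 0.04). The log2 fold change was 0.38 (SE 0.07, 95% interval 0.22 to 0.54), a fold of 1.30, with an adjusted p of 0.0368, and the within-scan value was 0.41. With normexp background correction the change was 0.10 (adjusted p = 0.0711).

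The sequence around the transcription start is shown for TNFRSF8 and TNFRSF13B, the called receptors, because it is where regulators of these genes would be looked for. The windows are from RefSeq on GRCh38.p14, and 27 of the 41 members matched an entry. The called ligands CD70 and TNFSF8, and TNFRSF4, had no entry and were not searched. Each window held 300 bases, 250 before and 50 after the start. It was searched on both strands for AP-1 (TGANTCA), NF-kB, ISRE (GAAA, any 2 bases, GAAA), STAT (TTCNNNGAA) and CRE (TGACGTCA) motifs. AP-1 and CRE read the same on both strands in their fixed letters and do not overlap here. The TNFRSF8 stretch lies at chr1:12063053-12063312 on the plus strand, with 250 bases before the start and 10 from it on, and the TNFRSF13B stretch at chr17:16972119-16972368 on the minus strand, the 250 bases before the start. Capitals mark a match to any of the 5 motifs.
TNFRSF8: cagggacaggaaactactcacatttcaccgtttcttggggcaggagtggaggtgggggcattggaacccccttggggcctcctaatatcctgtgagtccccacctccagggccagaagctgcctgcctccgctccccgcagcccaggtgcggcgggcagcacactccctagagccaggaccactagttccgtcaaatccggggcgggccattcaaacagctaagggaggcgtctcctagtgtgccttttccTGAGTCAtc
TNFRSF13B: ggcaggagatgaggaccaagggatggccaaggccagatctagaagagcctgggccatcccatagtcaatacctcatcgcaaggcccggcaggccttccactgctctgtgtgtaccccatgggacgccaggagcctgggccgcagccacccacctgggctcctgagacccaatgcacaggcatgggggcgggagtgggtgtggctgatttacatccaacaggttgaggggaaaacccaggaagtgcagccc

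The TNFRSF8 stretch held an AP-1 match whose first letter was base 2 of the transcript, and no match to the other motifs. The TNFRSF13B window held none of these letters. Among the 27 members in the table, 6 had an AP-1 match (CD27, FAS, TNFRSF8, TNFRSF9, TNFSF14 and TNFSF15), where 7.76% of all 27305 windows had it. An NF-kB match stood in 5 (LTB, TNFRSF14, TNFRSF25, TNFRSF9 and TNFSF14), against 10.8% of all windows. An ISRE match stood in 6 members (3.65% of windows) and a STAT match in 4 (7.88%), while CRE was found in 0 members (1.98%). The members with a match were TNFRSF8, which was called, uncalled genes and genes that were not detected. A match is a description of letters, and binding was not measured.

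CD70, the membrane ligand of CD27 on activated B and T cells, was upregulated. Its log2 signals were 12.41, 12.42 and 12.34 with IL-17A and 12.12, 12.11 and 12.15 without. The spread within each group was far below the gap between them, with SDs of 0.04 and 0.02. The log2 fold change was 0.26 (SE 0.04, 95% interval 0.16 to 0.36), a fold of 1.20, with an adjusted p of 0.033, and the within-scan value was 0.28.

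Its receptor was not called. CD27, a TRAF-binding receptor that marks memory B cells, read 10.70, 10.66 and 10.57 with IL-17A and 10.83, 10.78 and 10.72 without. Each IL-17A array lay below every control, by a narrow margin. The log2 fold change was -0.13 (SE 0.05, 95% interval -0.26 to -0.0012) and the adjusted p 0.157, so that no change was called.

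**Figure D2:**
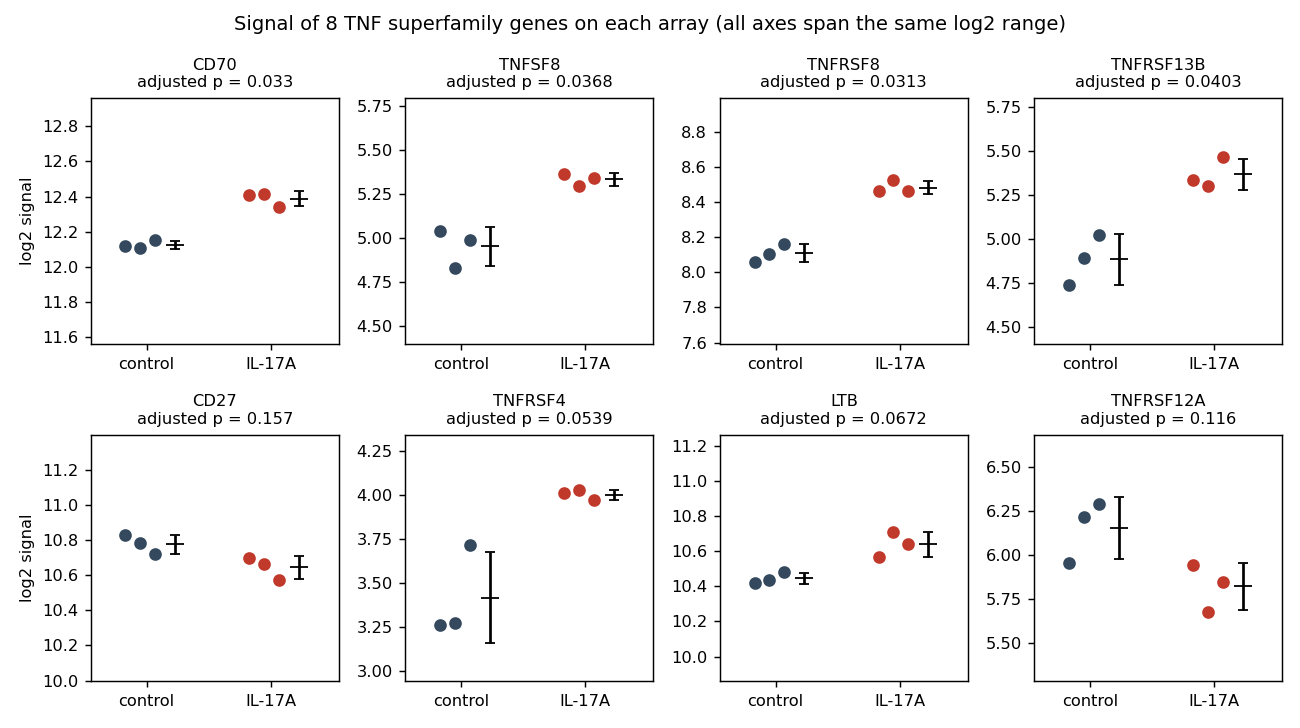
Log2 signal (y axis, quantile normalized) of 8 members on the 3 control arrays (blue) and the 3 IL-17A arrays (red), with the mean and SD of each group in black. All panels span the same range of log2 units. The groups do not overlap in any panel. All 8 are among the 12 members without overlap, 37.5% of the 32 tested, against 40.6% of all tested genes. The upper row shows the 4 called genes, and control replicate 3 of TNFRSF4 stands at 3.71 above the other controls.

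The receptors for BAFF and APRIL differed from each other. TNFRSF13B (TACI), which binds both cytokines and takes part in class switching and in limiting B cell numbers, was upregulated. It read 5.34, 5.30 and 5.47 on the IL-17A arrays and 4.73, 4.89 and 5.02 on the controls. Every IL-17A array exceeded every control. The log2 fold change was 0.48 (SE 0.09, 95% interval 0.27 to 0.70), a fold of 1.40, with an adjusted p of 0.0403, and 0.45 within the scan. It was 0.13 with normexp (adjusted p = 0.0692), and with 75th percentile scaling the adjusted p was 0.0501.

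TNFRSF13C (BAFF receptor), the main survival receptor of mature B cells, read 6.87, 6.95 and 6.89 with IL-17A and 6.91, 6.96 and 6.90 without. The groups overlapped closely, and the difference of -0.02 had a 95% interval of -0.12 to 0.08. TNFRSF17 (BCMA), a receptor of plasma cells and late B cells, read 9.97, 10.12 and 9.90 with IL-17A and 9.92, 9.90 and 9.98 without. Its difference was 0.06 (95% interval -0.10 to 0.23, adjusted p = 0.536). The difference between these receptors in response was not itself tested.

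Neither of their ligands passed the test. TNFSF13B (BAFF), a cytokine needed for B cell survival, read 3.27, 2.24 and 2.54 with IL-17A and 2.67, 2.54 and 3.52 without, and was detected on 2 arrays of each group. The arrays of each group scattered more than the groups differed (-0.23, 95% interval -1.14 to 0.69), so that a change of either sign could not be shown at this signal. TNFSF13 (APRIL) was detected on all 6 arrays and differed by -0.13 on the log2 scale (adjusted p = 0.327).

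Among the costimulatory receptors, TNFRSF4 came closest to a further call. TNFRSF4 (OX40) is a costimulatory receptor best known on activated T cells. Its log2 signals were 4.01, 4.03 and 3.97 with IL-17A and 3.26, 3.27 and 3.71 without, all detected. The IL-17A arrays were close together, and control replicate 3 stood between them and the other controls. The log2 fold change was 0.59 (SE 0.13, 95% interval 0.26 to 0.91), a fold of 1.501, with an unadjusted p of 0.00471 and an adjusted p of 0.0539. Without control replicate 3 it was 0.74 (adjusted p = 0.0414), and with normexp 0.10 (adjusted p = 0.0775).

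In TNFSF4, TNFSF9, TNFRSF14 and TNFRSF18, also costimulatory members, the IL-17A and control arrays overlapped. TNFSF4 (OX40 ligand) differed by 0.03 (95% interval -0.19 to 0.24) and TNFSF9 (4-1BB ligand) by 0.03 (-0.10 to 0.16). TNFRSF14 (HVEM), a receptor for LIGHT and for BTLA, which is frequently altered in B-cell lymphoma, had a difference of 0.11 (adjusted p = 0.259). TNFRSF18 (GITR) had one of 0.09 (adjusted p = 0.7).

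TNF and lymphotoxin, which share receptors, gave no call. TNF, the inflammatory cytokine that names the family, read 2.26, 2.27 and 2.95 with IL-17A and 3.04, 2.95 and 2.29 without, and was detected on 1 IL-17A array and 2 controls. The same high and low values occurred in both groups. Its log2 fold change was -0.27 (95% interval -0.96 to 0.43, adjusted p = 0.547). LTA (lymphotoxin alpha) read 2.92, 2.58 and 2.27 with IL-17A and 3.29, 3.12 and 2.87 without. IL-17A replicate 1 lay above control replicate 3, the other IL-17A arrays below all controls, and the difference was -0.50 (SE 0.19, adjusted p = 0.142). It was -0.17 within the scan.

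LTB (lymphotoxin beta), which anchors lymphotoxin alpha in the membrane and signals through LTBR, was detected on all 6 arrays. It read 10.57, 10.71 and 10.64 with IL-17A and 10.42, 10.44 and 10.48 without. The groups did not overlap, and the log2 fold change of 0.19 (SE 0.05, 95% interval 0.07 to 0.31) had an adjusted p of 0.0672. It passed with normexp (adjusted p = 0.0397) and with a variance trend (adjusted p = 0.0242). Within the scan it was 0.12.

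The receptors of these cytokines had values below 0, none called. TNFRSF1A, the death domain receptor of TNF, differed by -0.09 (adjusted p = 0.248). TNFRSF1B, its TRAF-binding counterpart, read 2.96, 2.74 and 2.69 with IL-17A and 2.96, 3.16 and 3.50 without. IL-17A replicate 1 and control replicate 1 were nearly equal, and the difference of -0.41 had an adjusted p of 0.137. LTBR was detected on 1 IL-17A array and 2 controls, with a difference of -0.11 (95% interval -0.98 to 0.76).

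CD40, the receptor through which T cell help reaches B cells, was measured by 2 probes. The brighter read 7.71, 7.68 and 7.71 with IL-17A and 7.59, 7.58 and 7.55 without, and the dimmer 7.20, 7.05 and 7.07 with and 6.92, 6.91 and 6.99 without. On both probes all IL-17A arrays lay above all controls. The log2 fold changes were 0.13 (SE 0.03, adjusted p = 0.075) and 0.16 (SE 0.05, adjusted p = 0.109), and no change was called. By the methods' t-test the brighter probe passed after adjustment (adjusted p = 0.0409). At a fold of 1.09, CD40 stayed below the 1.5-fold of the study's rule. Its ligand CD40LG, which activated T cells carry, was detected on 1 control array.

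Of the death receptors none passed the test. FAS, whose death domain recruits FADD and caspase 8, had 3 probes. The brightest read 6.82, 6.83 and 6.81 with IL-17A and 6.73, 6.67 and 6.69 without, with no overlap. Its difference was 0.12 (SE 0.04), with an adjusted p of 0.0872, or 0.0494 by the methods' t-test. The fold of 1.09 was below the 1.5-fold of the study's rule. The other probes gave 0.14 (adjusted p = 0.228) and -0.13 (adjusted p = 0.475), so that the probes of FAS disagreed in sign, none past the threshold. Its ligand FASLG was detected on no array.

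TNFSF10 (TRAIL), the ligand of the other main group of death receptors, read 7.64, 7.73 and 7.58 with IL-17A and 7.50, 7.57 and 7.59 without. The highest control exceeded the lowest IL-17A array, and the difference was 0.10 (95% interval -0.04 to 0.23, adjusted p = 0.286). A dimmer probe of TNFSF10 gave 0.11 (adjusted p = 0.159). The signalling receptor TNFRSF10B (DR5) read 11.18, 11.16 and 11.15 with IL-17A and 11.02, 11.11 and 11.08 without, a difference of 0.10 (adjusted p = 0.164). TNFRSF10A (DR4) differed by -0.0085 (95% interval -0.40 to 0.38).

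The decoy receptors of TRAIL lack a complete death domain. TNFRSF10C was detected on 1 IL-17A array and 2 controls and differed by -0.63 with a 95% interval of -1.99 to 0.73. TNFRSF10D was detected on all arrays and differed by -0.10 (adjusted p = 0.687). Of the other death domain receptors, TNFRSF21 (DR6) differed by -0.04 (95% interval -0.14 to 0.07) and TNFRSF25 (DR3) by -0.01 (-0.18 to 0.16).

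TWEAK and its receptor Fn14 pointed apart without a call. TNFRSF12A (Fn14), a small TRAF-binding receptor, read 5.94, 5.68 and 5.84 with IL-17A and 5.95, 6.22 and 6.29 without. The nearest arrays of both groups were nearly equal, and the log2 fold change was -0.33 (SE 0.11, 95% interval -0.61 to -0.05, adjusted p = 0.116). TNFSF12 (TWEAK) read 3.77, 2.27 and 2.81 with IL-17A and 2.61, 2.09 and 1.95 without, and was detected on 3 IL-17A arrays and 1 control. IL-17A replicate 1 stood far above the rest, and the difference was 0.73 (SE 0.41, adjusted p = 0.274). Within the scan, which sets that array alone against the controls, it was 1.55, and without IL-17A replicate 1 it was 0.32. TNFRSF11A (RANK), the receptor of osteoclast differentiation, differed by -0.22 (95% interval -1.002 to 0.56).

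The remaining 9 members had no tested probe, and no change can be given for them. FASLG, TNFSF14 (LIGHT), TNFSF15 (TL1A), TNFSF18 (GITR ligand), TNFRSF9 (4-1BB), TNFRSF11B (osteoprotegerin) and TNFRSF19 (TROY) were detected on none of the 6 arrays. CD40LG and TNFSF11 (RANK ligand) were each detected on 1 control array. Of the 17 ligands 6 were thus untested, and of the 24 receptors 3.

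Pairing each ligand with its receptors gave 27 pairs, of which 18 had both genes tested. TNFSF8 with TNFRSF8 was the pair in which both genes passed, at log2 fold changes of 0.38 and 0.37. In the pair CD70 with CD27 the ligand passed and the receptor read -0.13. TNFRSF13B passed while its ligands TNFSF13 and TNFSF13B read -0.13 and -0.23, both uncalled. OX40 and its ligand read 0.59 and 0.03. In both pairs of TNF and both pairs of LTA, ligand and receptor had negative values, none called.

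**Figure D3:**
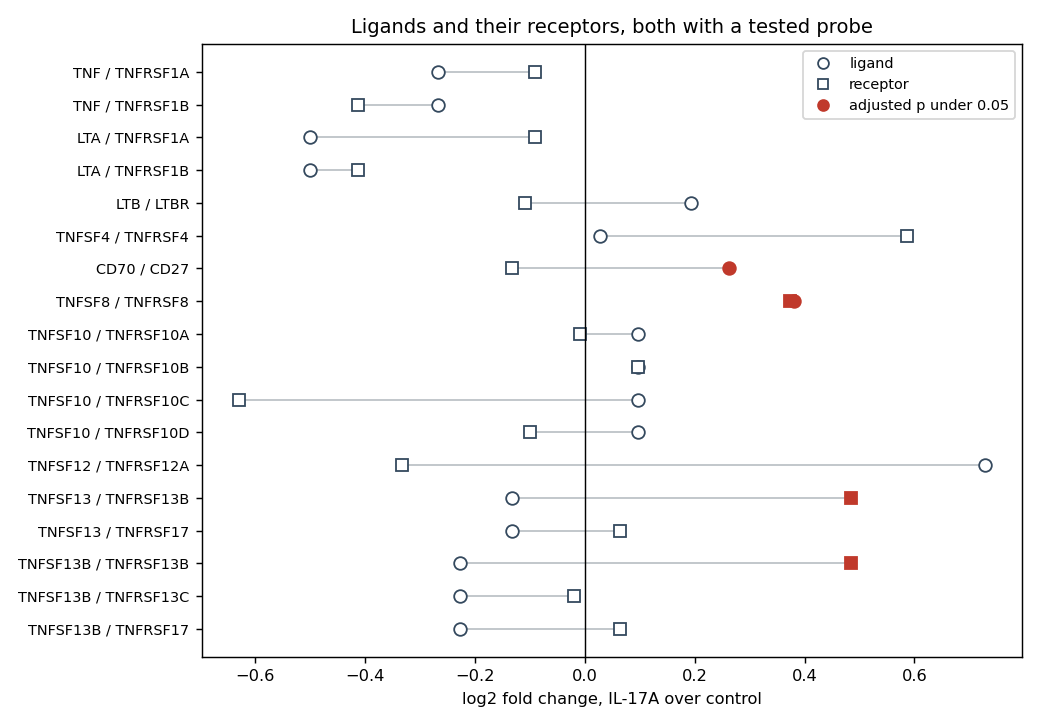
Log2 fold change of IL-17A over control (x axis) for the ligand (circle) and the receptor (square) of each of the 18 pairs with both genes tested, joined by a grey line, with red fill for an adjusted p under 0.05. A gene in several pairs is drawn in each. The points of TNFSF8 and TNFRSF8 nearly coincide at 0.38 and 0.37, and those of CD70 and CD27 lie on opposite sides of 0.

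Several members are next to each other in the genome by the gene order of RefSeq on GRCh38.p14, and no called member had a called member beside it. TNFRSF8 and TNFRSF1B on chromosome 1 have 0 protein-coding genes between them and read 0.37 and -0.41. On chromosome 19, CD70 at 0.26 lies between TNFSF9 at 0.03 and TNFSF14, which was not detected. On chromosome 9, TNFSF8 at 0.38 adjoins TNFSF15, which was not detected. LTA, TNF and LTB follow each other on chromosome 6 and read -0.50, -0.27 and 0.19. TNFRSF4 at 0.59 and TNFRSF18 at 0.09 are neighbours on chromosome 1. The 4 called genes lie on chromosomes 1, 9, 17 and 19.

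Genes that relay signals from these receptors were examined as a list of 31 adaptors and proximal signalling genes, all tested. TRAF3, an adaptor of CD40, BAFF receptor and other members that restrains the alternative NF-kB pathway, was the only one that passed. It read 5.93, 5.91 and 5.87 with IL-17A and 5.66, 5.62 and 5.71 without, a log2 fold change of 0.24 (SE 0.04) with an adjusted p of 0.0372. That is 3.23% of the list, against 4.37% of all tested genes in the same direction and 7.85% in either direction. The list's median was 0.0269, with 19 genes above and 12 below 0. Of the other TRAF adaptors, TRAF1 read 0.16 (adjusted p = 0.0611) and TRAF5 0.28 (adjusted p = 0.0772), and TRAF4 read -0.15 (adjusted p = 0.116). CFLAR, which encodes the caspase 8 inhibitor c-FLIP, differed between its probes. Its brightest was uncalled at -0.13 (adjusted p = 0.276), whereas a dimmer pair of probes rose by 0.17 (adjusted p = 0.0447) and 0.27 (adjusted p = 0.0361). With the scan as a block, neither TRAF3 (adjusted p = 0.122) nor these CFLAR probes (0.147 and 0.102) passed.

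Of 20 genes known as NF-kB targets, 16 were tested and 3 passed, all higher with IL-17A. That is a share of 18.8%, against 4.37% of all tested genes in the same direction and 7.85% in either direction. EBI3, a subunit of the cytokines IL-27 and IL-35, read 5.39, 5.39 and 5.32 with IL-17A and 4.81, 4.78 and 4.81 without, a log2 fold change of 0.57 (adjusted p = 0.018). RELB, a subunit of the alternative pathway, rose by 0.30 (adjusted p = 0.033), and REL, the NF-kB subunit most used in activated B cells, by 0.22 (adjusted p = 0.0367). Against this direction, CCL4, a chemokine, gave -0.19 on its brighter probe (adjusted p = 0.0789) and -0.28 on its dimmer probe (adjusted p = 0.0354). With the scan as a block these calls were lost, at adjusted p-values of 0.058 for EBI3, 0.108 for RELB and REL and 0.11 for the CCL4 probe, and with an array left out 0 or 1 gene of the list passed. The list's median was 0.11, with 12 genes above and 4 below 0. TRAF1, BIRC3 and TNFAIP3 stand in both lists. CCL22, CXCL10 and IL6 were detected on no array, and NFKB2 had no probe under its name.

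**Figure D4:**
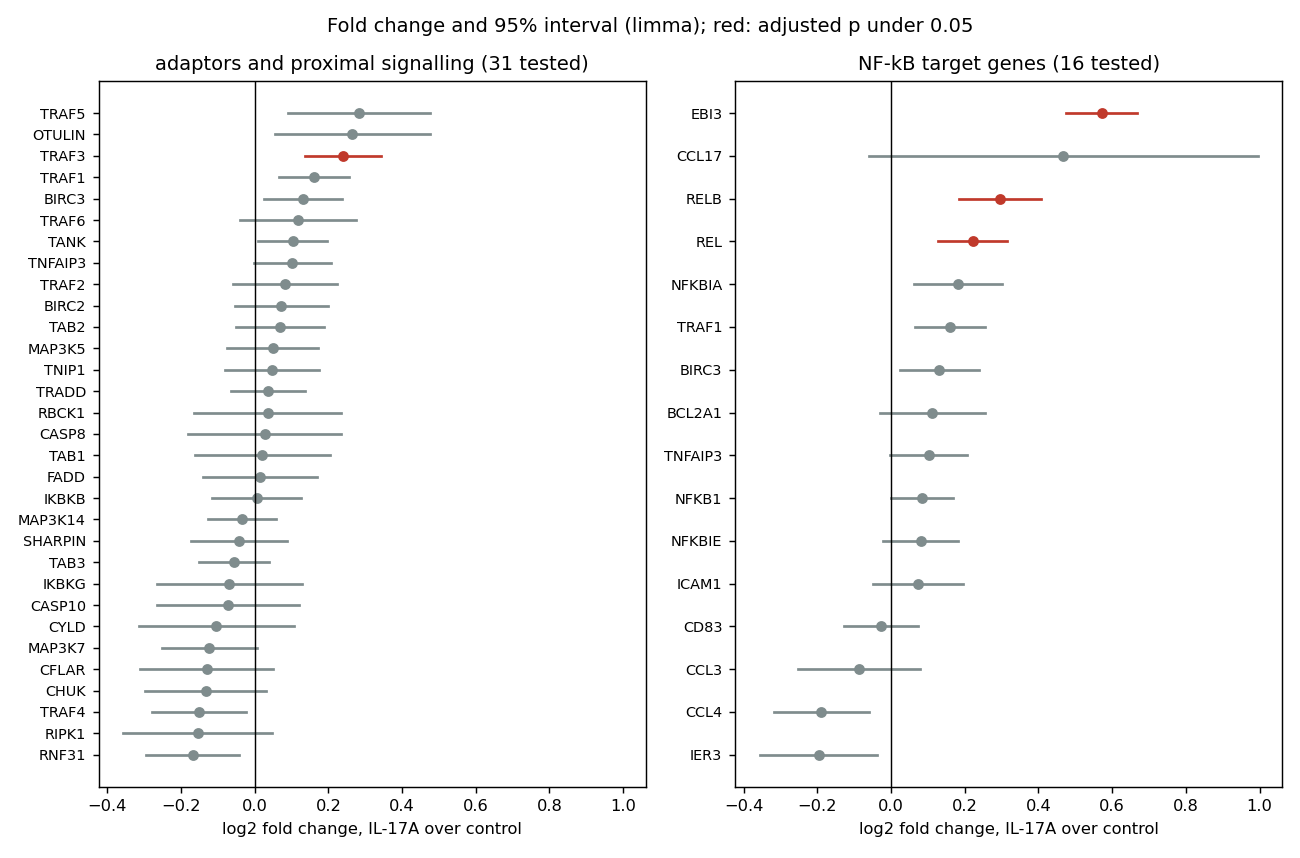
Log2 fold change of IL-17A over control (x axis) with the limma 95% interval for the 31 adaptors and proximal signalling genes (left) and the 16 tested NF-kB target genes (right), each by its brightest probe, red for an adjusted p under 0.05. TRAF3 on the left and EBI3, RELB and REL on the right are in red, and most other intervals cross 0 or lie close to it.

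Markers of cell types were read beside these results. The 7 B cell markers MS4A1, CD79A, CD79B, CD22, PAX5, EBF1 and BLK were detected on all 6 arrays. By their brightest probe 0 passed the test by limma. At an unadjusted p under 0.05 there were 2, CD79A at -0.17 and EBF1 at 0.20, where 31.8% of all tested genes had such a p. A dimmer probe of EBF1 passed (0.32, adjusted p = 0.0422), but not with the scan as a block (adjusted p = 0.133). The summed linear signal of the 7 was 27430 to 28970 with IL-17A and 28360 to 30180 without. Of 4 markers of plasma cells and activated B cells, 2 rose, XBP1 by 0.38 (adjusted p = 0.0286) and PRDM1 by 0.38 (adjusted p = 0.0327). Of all tested genes 4.37% passed in this direction and 7.85% in either direction. SDC1 gave -0.21 (adjusted p = 0.0923) and IRF4 -0.10. The summed signal of these 4 was 2988 to 3140 with IL-17A and 2560 to 2614 without. That sum weights genes by the brightness of their probes, and its members had values of both signs. With the scan as a block neither XBP1 (adjusted p = 0.0927) nor PRDM1 (adjusted p = 0.118) passed.

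Of the 7 T and NK cell markers 6 were tested and detected on all arrays, with a summed signal of 192 to 212.4 with IL-17A and 185.6 to 200 without. Of these, 4 had values above and 2 below 0. CD3E passed at -0.46 (adjusted p = 0.0401), while CD2 read 0.51 with no overlap between the groups (adjusted p = 0.0539). With the scan as a block CD3E did not pass (adjusted p = 0.163), and KLRD1 was detected nowhere. Of the myeloid markers CD14 and CD33 were tested and CSF1R was not detected (73.73 to 83.15 against 82.36 to 94.26). LYZ and AIF1 had no probe under their names. Of the 5 endothelial markers 4 were tested, all with negative values and none called (260.4 to 269.8 against 287.4 to 330.7). COL1A1 was the only tested mesenchymal marker of 5, and COL1A2, COL3A1, DCN and LUM were detected on no array. The part of these genes in the results was not tested.

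**Figure D5:**
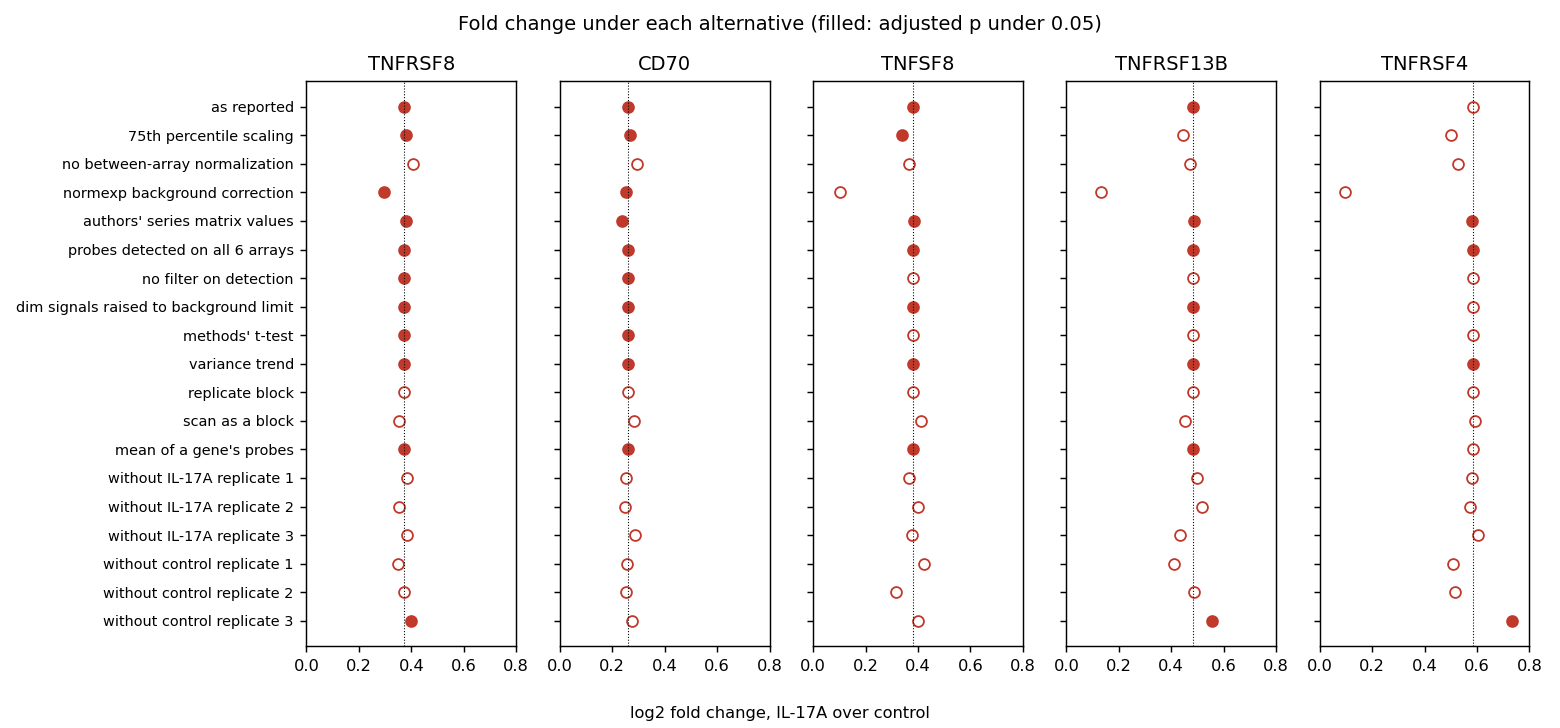
Log2 fold change of IL-17A over control (x axis) for the 4 called members and TNFRSF4 as reported, under the 12 alternative settings and with each array left out, filled where the adjusted p was under 0.05 and open otherwise. The dotted line is the reported value. Every point is above 0, and normexp gives the lowest value for TNFSF8 (0.10), TNFRSF13B (0.13) and TNFRSF4 (0.10).

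Over the 12 alternative settings, the size of the change varied less for CD30 and CD70 than for TNFSF8, TNFRSF13B and TNFRSF4. Most of this contrast lay in 1 setting, normexp, which gave the lowest values of TNFSF8, TNFRSF13B and TNFRSF4. Without normexp the range was 0.34 to 0.41 for TNFSF8, 0.45 to 0.49 for TNFRSF13B and 0.50 to 0.59 for TNFRSF4. The lower ends of these ranges came with 75th percentile scaling. For TNFRSF8 the range without normexp was 0.35 to 0.41, and for CD70 0.24 to 0.29. For TNFRSF8 the log2 fold change stayed between 0.30 and 0.41 over 12 alternative settings, and for CD70 between 0.24 and 0.29. Each passed the adjusted threshold in 9 of the 12. For TNFSF8 it ran from 0.10 to 0.41 with 6 calls, and for TNFRSF13B from 0.13 to 0.49 with 5. TNFRSF4 ran from 0.10 to 0.59 and passed in 3, with the authors' series matrix values, with probes detected on all 6 arrays and with a variance trend. With a replicate left out, the range was 0.35 to 0.40 for TNFRSF8, 0.25 to 0.29 for CD70, 0.32 to 0.42 for TNFSF8, 0.41 to 0.55 for TNFRSF13B and 0.51 to 0.74 for TNFRSF4.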

How the data were processed

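RNA of 3 SU-DHL-2 samples with IL-17A and 3 without, grouped by title, was labelled with Cy3 and measured on 1-colour arrays. The authors' scanner files (Agilent Feature Extraction 11.0.1.1) hold a background-subtracted intensity per spot, not scaled between arrays, the deposited median intensities of spot and background, and flags (other values, 0 or 1). The authors' series matrix, an alternative, holds quantile-normalized log2 values (r = 0.9996 to 0.9998 with the log2 intensities).

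Control spots and non-uniform spots (4 to 25 per array) were left out, intensities under 1 were raised to 1, and log2 values were averaged over a probe's spots and quantile normalized, as in the study. No spot was saturated. The lowest probe intensity well above background was 3.62 to 4.32 over the arrays, on the linear scale after quantile normalization. RefSeq accessions gave 25771 probes 1 gene name. The 23945 probes with detection on 3 or more arrays entered a two-sided limma test (limma 3.58.1, R 4.3.3, no covariates) with Benjamini-Hochberg adjustment. An exact permutation test of 3 against 3 cannot go below p = 0.1, and the number of arrays limits precision. The study describes 3 cultured samples per group, but the sources do not say whether they were independent preparations, so p-values measure the spread between these samples, which may be technical. The replicate numbers did not pair the arrays (correlations of deviations -0.0871, -0.0022 and -0.0466). The procedure was tested on simulated data.

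Members, lists, pairs and the rule for named genes were chosen with earlier results of these data known. A further B cell marker is not reported here. Every array is given for members past either call rule and for members fixed by role. TNFRSF10B, TNFRSF12A, TNFRSF1B, TNFSF12, CCL4 and the uncalled genes of other lists were detailed after their values were seen. Alternatives were other normalizations, normexp (offset 50), the series matrix, other filters, a floor, a variance trend, the methods' t-test, replicate and scan blocks, probe means and each array left out.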

Additional observations from a re-analysis of the deposited data

How the results depend on the processing

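The number of members called, 4 as reported, was 0 without between-array normalization, with a replicate block and with the scan as a block. It was 2 with no filter on detection, and 1 at 1.5-fold and 0 at 2-fold with an unadjusted p. With an array left out it was 0 to 3, control replicate 3 giving the 3. At an unadjusted p under 0.05 by limma, 9 of 32 members passed without normalization and 10 with the replicate block. Of all 14747 named genes tested, 2787 and 3864 did so, and 3114 to 4728 with an array left out. For all named genes the count of 1157 became 28, 3 and 31 without normalization, with the replicate block and with the scan block, 2614 with a variance trend, 283 at 1.5-fold, 56 at 2-fold and 1 to 608 with an array left out. With 75th percentile scaling 411 genes were higher and 457 lower, against 644 and 513, and the median of all tested probes moved from 0.0070 to -0.0097. Of the adaptors, 1 as reported, 3 passed with a variance trend. The count was 0 without normalization (3 unadjusted), with the replicate block (6 unadjusted) and with the scan block. It was also 0 at 1.5-fold, at 2-fold and with any array left out (5 to 7 unadjusted). The NF-kB target list, whose alternatives were chosen after seeing the data, had 3 genes called as reported. It had 5 with normexp and 5 with a variance trend. The list had 0 without normalization (4 unadjusted), with the replicate block (8 unadjusted), with the scan block, at 1.5-fold and at 2-fold. With an array left out it had 0 to 1. The methods' t-test, with adjustment and without a fold rule, also called 4 members. These were CD70, TNFRSF8, CD40 and FAS, while TNFSF8 (adjusted p = 0.0633) and TNFRSF13B (0.074) did not pass. The variance trend called LTB and TNFRSF4 besides the 4 reported. Among 569 values of single members under the alternatives, 41 lost a call, 8 gained one and 0 reversed, and 31 values called in neither fit changed sign. The 41 losses fell on the 4 called members, the only ones with a call to lose. Over 12 settings CD70 kept its call in 9, TNFSF8 in 6, TNFRSF8 in 9 and TNFRSF13B in 5. Over the 6 fits with an array left out they kept it in 0, 0, 1 and 1. The cause of these differences was not tested, and slides were not identified apart from scans. Signal over background limits TNF, LTA, LTBR, TNFSF12, TNFSF13B, TNFRSF10C and TNFRSF11A, none of them detected on all 6 arrays.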

Other observations

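Of 6 superfamily genes outside the choice of members, EDA, RELT and TNFRSF6B were tested and 0 passed by limma. At an unadjusted p under 0.05 there were 2, where 31.8% of all tested genes had such a p. RELT, a TRAF-binding receptor, had a log2 fold change of -0.11 (SE 0.04, adjusted p = 0.137). TNFRSF6B (DcR3), a soluble decoy for FAS ligand, LIGHT and TL1A, had one of -0.23 (SE 0.06, adjusted p = 0.0751) on its brighter probe and 0.05 on its dimmer probe. EDAR and EDA2R were detected on no array, and NGFR on 1.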
